A study of Mus musculus with 5 samples.

Results

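The mouse genes of 9 dual-specificity phosphatases (DUSPs) that act on MAP kinases were examined for binding of the transcription factor Runx3 and for H3K4me1. The genes were Dusp1, Dusp2, Dusp4, Dusp5, Dusp6, Dusp7, Dusp8, Dusp10 and Dusp16, out of 22271 protein-coding genes in the GENCODE vM1 annotation of mm9. Called regions were assigned to a gene where they overlapped its body extended by 20 kb on each side. By this rule the 9 genes held 16 of 9135 Runx3-bound regions and 36 of 18992 H3K4me1-marked regions, and no region was shared by a pair of the genes. Runx3 belongs to the RUNX transcription factors and is highly expressed in cytotoxic lymphocytes. H3K4me1 denotes monomethylation of a lysine of histone H3, which marks enhancers in particular.

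The cells were splenic CD8-TC (CD8+ T cells) of wild-type ICR mice, positively selected through CD8 and analysed by ChIP-seq. All cells received the same treatment, namely TCR activation for 2 days with plate-bound anti-CD3e and soluble anti-CD28 followed by culture with 100 u/ml recombinant human IL-2 for 4 days. The 5 libraries were 2 immunoprecipitations with anti-Runx3 antibody, 2 with non-immune serum (NIS) as control and 1 with anti-H3K4me1 antibody. There was thus 1 condition, and the labels gave neither the age of the mice nor how many spleens entered each library. Since there was 1 list of regions per antibody, without peak heights and with the repeats of Runx3 joined, the values below are positions and counts with no replicate error, and read depth behind a region is unknown. Counts that differ between genes can therefore not be set against a spread between repeats. As a check of the cell label, the 10 T cell marker genes examined, some of which are neighbours with regions in common, all held Runx3-bound and H3K4me1-marked regions. Of 6 B cell markers, 2 held a Runx3-bound and 3 an H3K4me1-marked region, with the same numbers for 6 myeloid markers, and none of 5 erythroid markers held either. Over all protein-coding genes the shares were 34.2% and 39.3%, by the same rule. The B cell and myeloid markers thus lay near the shares of all genes and not clearly below them. The gene lists were chosen with earlier results of these data known, so this check was not independent of the data.

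MAP kinases are activated by phosphorylation of a threonine and a tyrosine in one loop, and DUSPs of the MAP kinase phosphatase group remove both phosphates. Antigen receptor signalling activates the MAP kinases ERK, JNK and p38 in T cells, and several of these phosphatases are induced by the same signals and so act in negative feedback. By location and substrate, Dusp1, Dusp2, Dusp4 and Dusp5 encode inducible nuclear enzymes, Dusp6 and Dusp7 encode cytoplasmic enzymes that act mainly on ERK, and Dusp8, Dusp10 and Dusp16 encode enzymes that act mainly on JNK and p38.

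RUNX factors bind the canonical motif in its variants TGTGGT or TGTGGC and TGCGGT or TGCGGC. In the following stretches of Runx3-bound regions, all on the plus strand of the mm9 reference genome and not of the ICR cells themselves, capitals mark these variants. ACCACA and GCCACA are the first pair read from the other strand, and GCCGCA is TGCGGC read so. The stretches of Dusp10 upstream, Dusp2 start, Dusp5 start and Dusp6 start are shown because they belong to the widest region on H3K4me1 and to the regions at gene starts. That of Dusp5 was kept short because it lies in UTR sequence. The Dusp6 start stretch was not shortened, although its region overlaps UTR and coding exon. That stretch is centred 640 bp downstream of the gene start, inside the gene.
Dusp10 upstream (chr1:185829804-185829923): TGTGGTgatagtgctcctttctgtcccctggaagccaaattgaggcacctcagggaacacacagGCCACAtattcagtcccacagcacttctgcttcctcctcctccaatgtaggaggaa
Dusp2 start (chr2:127160873-127160992): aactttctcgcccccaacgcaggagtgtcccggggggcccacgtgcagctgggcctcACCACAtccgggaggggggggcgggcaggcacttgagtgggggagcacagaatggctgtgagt
Dusp5 start (chr19:53603716-53603745): ctccgtttgcagGCCACAgcccccgcgagg
Dusp6 start (chr10:98726445-98726564): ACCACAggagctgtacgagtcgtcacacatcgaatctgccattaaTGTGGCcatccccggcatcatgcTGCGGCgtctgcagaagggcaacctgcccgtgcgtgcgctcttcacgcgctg

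The next 4 stretches were chosen after their values were seen. Together with that of the Dusp6 start, they come from the 5 regions in which a pair of RUNX motifs stood at most 50 bases apart within the central 200 bp.
Dusp6 3′ side (chr10:98731506-98731625): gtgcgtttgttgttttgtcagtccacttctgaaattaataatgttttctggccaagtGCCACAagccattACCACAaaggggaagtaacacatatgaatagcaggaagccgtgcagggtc
Dusp7 intron (chr9:106275439-106275558): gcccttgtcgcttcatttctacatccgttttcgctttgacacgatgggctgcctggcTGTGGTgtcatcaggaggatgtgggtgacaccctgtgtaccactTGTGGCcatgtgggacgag
Dusp8 upstream (chr7:149299448-149299567): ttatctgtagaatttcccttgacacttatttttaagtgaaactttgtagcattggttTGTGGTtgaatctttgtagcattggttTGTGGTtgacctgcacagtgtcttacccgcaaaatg
Dusp10 intron (chr1:185848636-185848755): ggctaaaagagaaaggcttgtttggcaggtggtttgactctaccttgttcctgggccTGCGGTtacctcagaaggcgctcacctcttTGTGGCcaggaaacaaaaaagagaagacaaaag

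The motifs were 7 bases apart on the 3′ side of Dusp6, 38 bases apart in Dusp7, 21 in Dusp8 and 24 in the Dusp10 intron. In the Dusp6 start stretch 3 motifs followed each other with 39 and 17 bases between. The Dusp8 stretch held a 25-base word that occurred again 27 bases further on, and each copy carried 1 TGTGGT.

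Of the 9 genes, 7 had at least 1 Runx3-bound region in the gene body or within 20 kb, compared with 34.2% of all protein-coding genes. An H3K4me1-marked region was present at all 9 genes, compared with 39.3%. A Runx3-bound region that overlapped H3K4me1 was present at 7 genes, compared with 17.8%. The other genes, Dusp1 and Dusp4, had H3K4me1 without Runx3, as did 13.1% of all genes. With a window of the same length for every gene, 20 kb on each side of the gene start, 7 genes again had a Runx3-bound region, compared with 25.9% of all genes. The median window was 52.6 kb for the 9 genes and 55.5 kb for all genes. The shares over all genes include genes not expressed in these cells, since expression is not in the region lists. Whether the 9 genes differ from expressed genes was not tested.

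**Figure D1:**
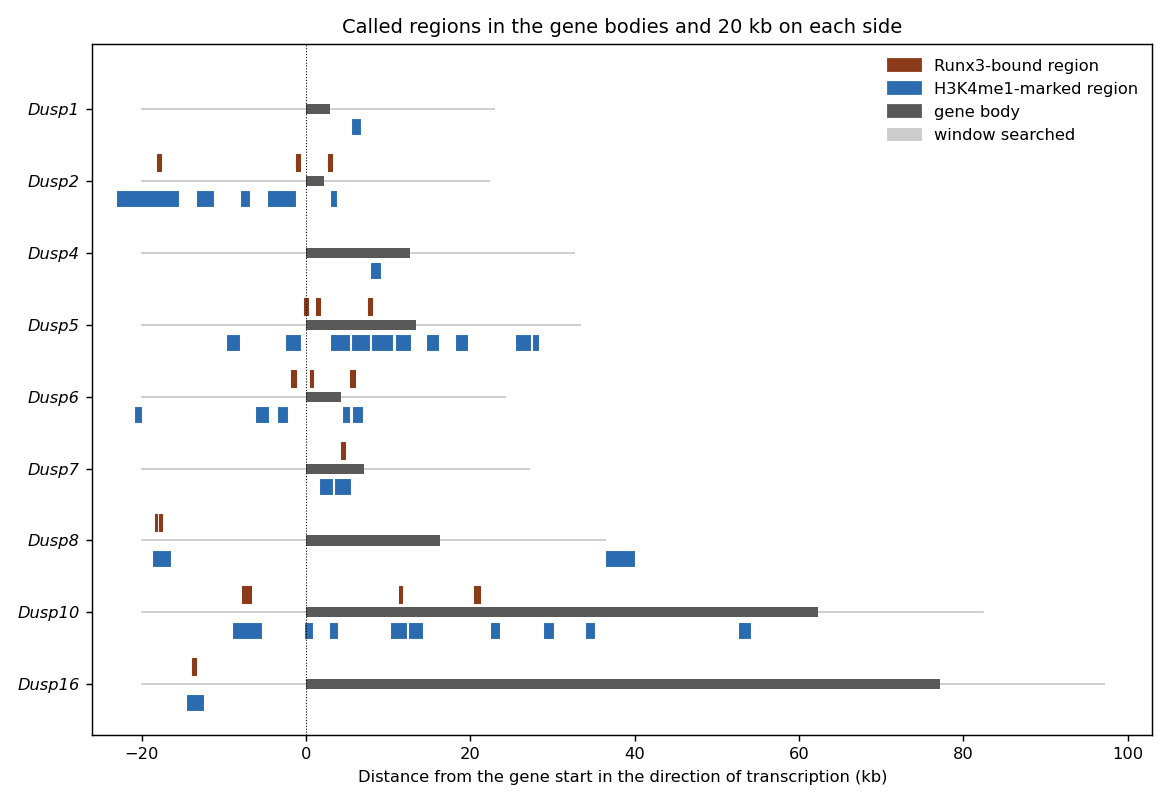
Runx3-bound regions (brown, above each line) and H3K4me1-marked regions (blue, below) at the 9 DUSP genes, against the distance in kb from the gene start in the direction of transcription; grey bars are gene bodies and thin lines the windows of 20 kb on each side. Dusp1 and Dusp4 have 1 blue and 0 brown bars, and Dusp5 has 10 blue bars.

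The genes held from 0 to 3 Runx3-bound regions each, with no gap in the counts between. Dusp2, Dusp5, Dusp6 and Dusp10 each held 3 Runx3-bound regions, and 3 or more were found at 5.44% of all genes. The same 4 genes held 5 or more H3K4me1-marked regions, as did 6.56% of all genes; both limits were chosen after the counts were seen. Dusp8 held 2 Runx3-bound regions, and Dusp7 and Dusp16 held 1 each. The mean number of Runx3-bound regions per window was 1.78 at the 9 genes and 0.577 over all genes. For H3K4me1 the mean was 4 at the 9 genes and 1.13 over all genes. Per 100 kb of window this was 2.87 Runx3-bound and 6.45 H3K4me1-marked regions for the 9 genes, against 0.674 and 1.31 over all genes, whose windows overlap in part.

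**Figure D2:**
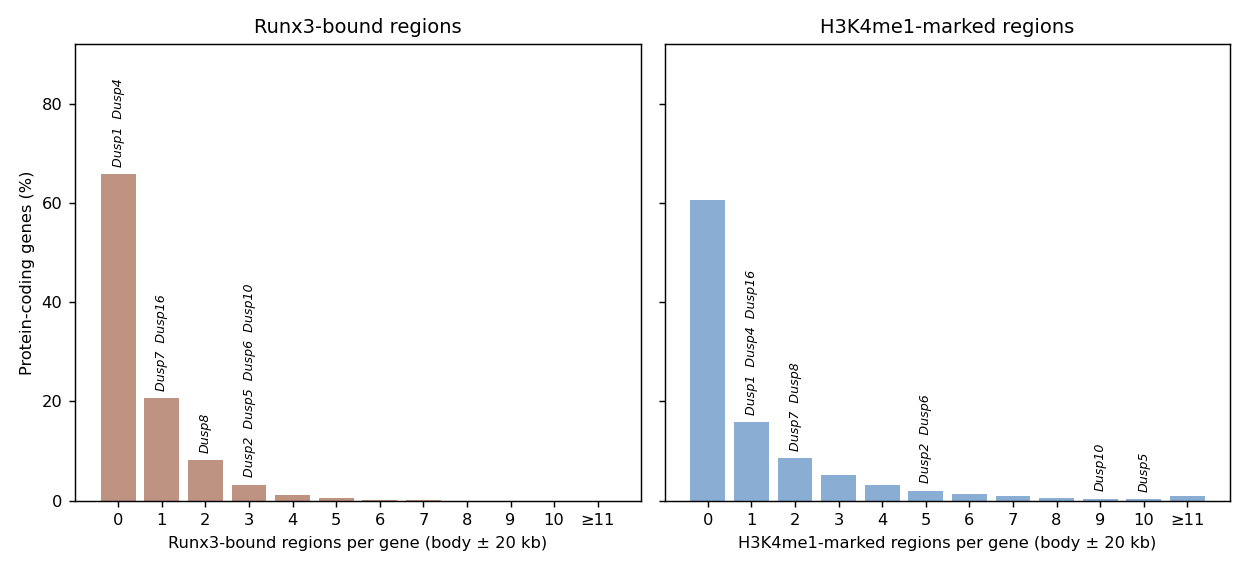
Share in percent of the 22271 protein-coding genes (bars) by the number of Runx3-bound regions (left) and H3K4me1-marked regions (right) in the gene body and 20 kb on each side, with the DUSP genes written above the bar of their own number. Dusp1 and Dusp4 stand over 0 Runx3-bound regions, where 14656 of all genes lie, while Dusp10 and Dusp5 stand over 9 and 10 H3K4me1-marked regions.

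Among the inducible nuclear phosphatases, Dusp5 had the most extensive H3K4me1. Dusp5 (chr19:53603599-53616921, plus strand) encodes a nuclear phosphatase with a preference for ERK. Its 10 H3K4me1-marked regions lay from 8.86 kb upstream to 27.91 kb downstream of the gene start and covered 18.9 kb, or 35.5% of the window. As many H3K4me1-marked regions were found at 1.32% of all genes, and as large a covered share at 0.292%. Within the gene body, 4 of these regions followed each other with gaps of 150, 174 and 227 bp. The gene start itself lay in a gap of 3551 bp between marked regions.

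The first Runx3-bound region of Dusp5 (53603291 to 53603825, 535 bp) spanned the gene start, with its centre 0.04 kb upstream, and overlapped UTR and coding exon. It lay 365 bp from the nearest H3K4me1-marked region. The second (53604841 to 53605238, 398 bp) was in an intron at 1.44 kb downstream, 1238 bp from the mark. Both were thus centred in the unmarked gap. The last (53611115 to 53611594, 480 bp) was in an intron at 7.76 kb and was covered by H3K4me1 over 63.8% of its length. It bridged the 174 bp between a pair of marked regions and was the one region of 16 that touched more than 1 of them, compared with 7.53% of all Runx3-bound regions.

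Dusp2 (chr2:127161895-127164112, plus strand) encodes a nuclear phosphatase abundant in activated lymphocytes. Its 5 H3K4me1-marked regions covered 12.3 kb, or 29.0% of the window, a share reached by 0.615% of all genes. Most of this lay upstream. The widest (127138715 to 127146404, 7690 bp) was also the widest of the 36 and reached beyond the window. The 36 regions had a median width of 1712 bp, against 1592 bp over the whole list.

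The 3 Runx3-bound regions of Dusp2 all overlapped H3K4me1. One (127143714 to 127144240, 527 bp) lay wholly inside the widest marked region at 17.92 kb upstream. Another (127160616 to 127161190, 575 bp) was centred 0.99 kb upstream of the gene start and was covered over 17.6% of its length, at the edge of a marked region of 3522 bp. The last (127164611 to 127165004, 394 bp) was beyond the gene end, at 2.91 kb from the start, and was covered over 54.3%. This region overlapped UTR sequence of Astl, whose start was the nearest protein-coding gene start at 432 bp, and its assignment to Dusp2 rests on the window.

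Dusp1 and Dusp4 had the fewest regions of this group. Dusp1 (chr17:26642535-26645464, minus strand) encodes an immediate early phosphatase of p38, JNK and ERK. Its 1 H3K4me1-marked region (26638734 to 26640023, 1290 bp) lay beyond the gene end at 6.09 kb from the start and made up 3.0% of the window. Dusp4 (chr8:35870351-35882948, plus strand) encodes a nuclear phosphatase related to that of Dusp1. Its 1 H3K4me1-marked region (35878084 to 35879483, 1400 bp) was intronic, at 8.43 kb, and made up 2.66%. Covered shares as large were found at 25.2% of all genes for Dusp1 and at 27.2% for Dusp4. The nearest edge of a Runx3-bound region was 24.0 kb from the Dusp1 start and 42.0 kb from the Dusp4 start, both outside the windows.

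Of the cytoplasmic ERK phosphatases, Dusp6 had more regions than Dusp7. Dusp6 (chr10:98725865-98730122, plus strand) encodes a feedback inhibitor of ERK. Its 5 H3K4me1-marked regions covered 5.71 kb, or 12.9% of the window, a share reached by 5.49% of all genes. The gene body held none of them. An unmarked stretch of 6467 bp reached from 98723712 to 98730178, and so over the whole gene.

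A pair of the 3 Runx3-bound regions of Dusp6 were centred in this stretch. One (98723989 to 98724676, 688 bp) was centred 1.53 kb upstream of the start, and its edge was 277 bp from the mark. The other (98726324 to 98726755, 432 bp) was centred 0.67 kb downstream over UTR and coding exon, with 2612 bp between its edge and the mark. The last (98731236 to 98731838, 603 bp) lay beyond the gene end at 5.67 kb, covered by H3K4me1 over 71.5% of its length.

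Dusp7 (chr9:106270963-106278055, plus strand) encodes the close relative of the Dusp6 product. It had 2 H3K4me1-marked regions, 172 bp apart inside the gene, which covered 7.96% of the window. The second (106274397 to 106276422, 2026 bp) held the 1 Runx3-bound region (106275271 to 106275693, 423 bp), in an intron 4.52 kb from the gene start. The centre of this Runx3-bound region was 1468 bp from the nearest annotated transcript start of Dusp7.

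Of the JNK and p38 phosphatases, Dusp10 (chr1:185837181-185899515, plus strand) had the most regions. Its window of 102 kb was also longer than the median, and 14.9 kb or 14.6% of it carried H3K4me1 in 9 regions. As many regions were found at 1.70% of all genes, and as large a covered share at 4.24%. Most of the 9 lay nearer to the start of 1700056E22Rik, in the same window, than to that of Dusp10. Within 20 kb of the Dusp10 start there were 5, so the assignment of the others rests on the long gene body. One of the marked regions (185836954 to 185837983, 1030 bp) was centred 0.29 kb from the gene start. Dusp10 was the 1 gene of 9 with an H3K4me1-marked region centred within 1 kb of its gene start, compared with 3.03% of all genes. Counted from any annotated transcript start, a marked region of Dusp7 (106272502 to 106274224) was as close, at 288 bp.

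The widest Runx3-bound region of the 16 (185829363 to 185830439, 1077 bp) lay 7.28 kb upstream of Dusp10 in a marked region of 3652 bp. The median width of the 16 was 476 bp, against 521 bp over the whole list. A region of 344 bp (185848516 to 185848859) was intronic at 11.51 kb and also wholly on H3K4me1. Its nearest protein-coding gene start was that of 1700056E22Rik, at 8766 bp. The last (185857673 to 185858309, 637 bp) lay at 20.81 kb over UTR and intron, 1205 bp from the mark. It was centred 269 bp from a second annotated transcript start of Dusp10 and 538 bp from the start of 1700056E22Rik, the nearest other gene start.

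Dusp16 (chr6:134665488-134742643, minus strand) had the longest window, 117 kb, and the least H3K4me1 for its length. Its 1 marked region (134755096 to 134757199, 2104 bp) made up 1.80% of the window, a share reached by 33.0% of all genes. This region held the 1 Runx3-bound region of the gene (134756043 to 134756515, 473 bp), centred 13.64 kb upstream of the start.

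Dusp8 (chr7:149265395-149281748, minus strand) had both of its Runx3-bound regions in 1 H3K4me1-marked region of 2237 bp upstream. These measured 462 bp (149299221 to 149299682, 17.70 kb upstream) and 239 bp (149299843 to 149300081, 18.21 kb upstream) and were separated by 160 bases. The 239 bp region was the narrowest of the 16. The second H3K4me1-marked region of Dusp8 (149241699 to 149245412, 3714 bp) overlapped an intron of Mob2, whose start lay closer, and reached the window at its far edge only.

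Over all 9 genes, 8 Runx3-bound regions lay upstream of the gene start, 6 in the gene body and 2 beyond the gene end. For H3K4me1 these numbers were 12, 15 and 9. The nearest protein-coding gene start was that of the DUSP gene itself for 13 of 16 Runx3-bound and 28 of 36 H3K4me1-marked regions. Most of the other regions belonged to Dusp10. By the distance of their centres from the gene start, 9 Runx3-bound regions lay at 5 kb or more, 4 between 1 and 5 kb and 3 closer than 1 kb. Counted from the nearest annotated transcript start of the gene, 8 lay at 5 kb or more. Shares over the whole lists were not computed for these placements, nearest starts and distances. The 3 closest to a gene start belonged to Dusp2, Dusp5 and Dusp6, and a region centred within 1 kb of the start was found at 8.85% of all genes. The Dusp2 region, at 0.99 kb, was just inside this limit.

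H3K4me1 overlapped 11 of the 16 Runx3-bound regions (68.8%, 95% Wilson interval 44.4 to 85.8, counting error among regions only). Over the whole list the share was 57.3%, which lies inside this interval. Seen from the mark, 11 of 36 H3K4me1-marked regions held a Runx3-bound region (30.6%, 18.0 to 46.9), against 29.2% of all. In both directions the share at the DUSP genes was thus not distinguishable from that of the whole lists. Of the 11 overlapping regions, 7 lay wholly within H3K4me1 (63.6%), near the 60.6% of all overlapping regions.

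The 5 Runx3-bound regions without H3K4me1 belonged to Dusp5, Dusp6 and Dusp10. They were centred 41 to 1532 bp from an annotated transcript start of their gene, with a median of 674 bp. The 11 regions with H3K4me1 were centred 992 to 18214 bp away, with a median of 7756 bp, so that the ranges overlapped. These distances were not computed for the whole list. The GC content of the 5 was 50.8 to 69.9% with a median of 64.5%, and that of the 11 was 42.0 to 56.3% with a median of 48.9%. Over the whole list the medians were 52.5% without and 47.9% with H3K4me1.

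A RUNX motif was present in 15 of the 16 Runx3-bound regions (93.8%, 71.7 to 98.9), compared with 92.6% of all. The region without one was the intronic region of Dusp5 at 1.44 kb. Within the central 200 bp the motif was present in 12 (75%, 50.5 to 89.8), compared with 78.7% of all. These shares were not distinguishable from those of the whole list. The motif nearest to the centre lay at a median of 30 bp, against 38 bp over the whole list.

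The 15 regions held 33 RUNX motifs, of which 15 were TGTGGT and 13 TGTGGC. The variant TGCGGC occurred 4 times, in the Dusp6 regions at 1.53 kb upstream and 0.67 kb downstream, and TGCGGT occurred once, in the Dusp10 intron. TGTGGT made up 45.5% of the 33 motifs and 52.0% of those in all regions, and was present in 10 of 16 regions (62.5%, 38.6 to 81.5) compared with 69.6% of all. TGTGGC made up 39.4% against 28.3% in all regions, TGCGGC 12.1% against 9.39% and TGCGGT 3.03% against 10.3%, with no test of these shares. The most motifs in 1 region were 8, namely 5 TGTGGT and 3 TGTGGC, in the Dusp10 region upstream of the gene, which was also the widest.

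**Figure D3:**
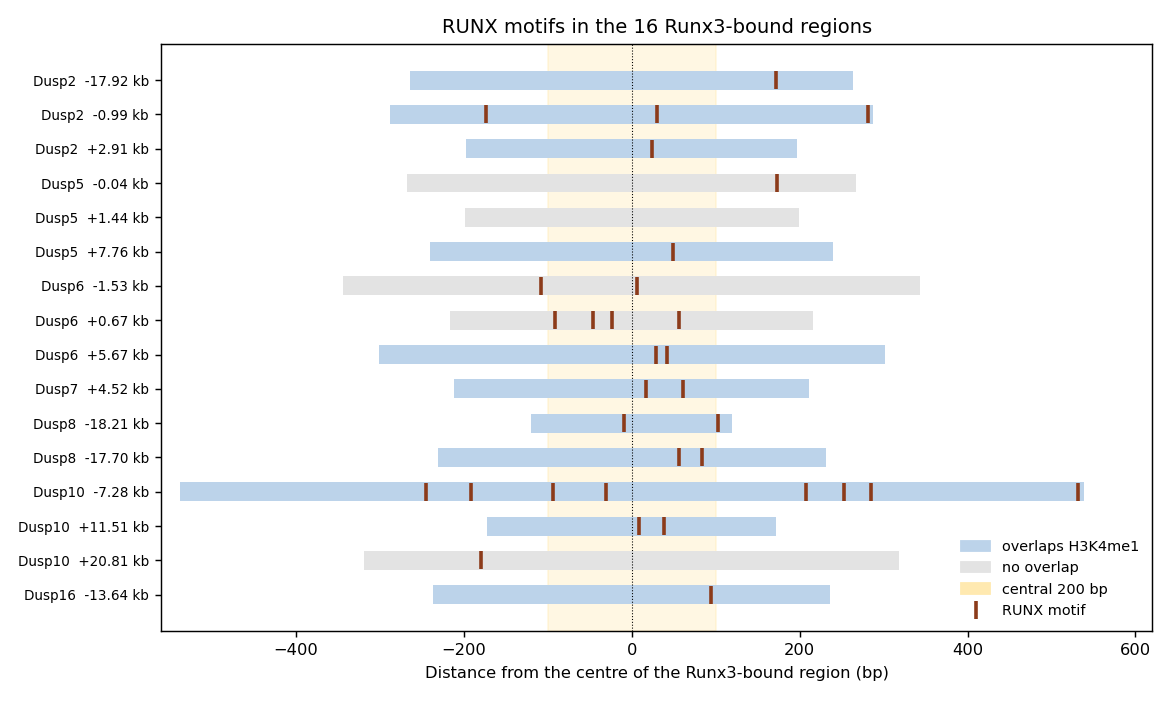
The 16 Runx3-bound regions of the DUSP genes drawn to their width around their centre (bp), blue where they overlap H3K4me1 and grey where not, with each RUNX motif as a vertical line and the central 200 bp shaded; rows give the gene and the distance of the centre from its start. The Dusp10 region at 7.28 kb upstream carries 8 motifs and the Dusp5 region at 1.44 kb downstream carries 0.

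ETS factors are abundant in T cells and bind a GGAA core. The ETS motif, here AGGAAA or AGGAAG and CGGAAA or CGGAAG on either strand, was present in the central 200 bp of 8 of 16 regions (50%, 28.0 to 72.0), compared with 66.1% of all. ETS and RUNX motifs at most 50 bases apart were present in 4 regions (25%, 10.2 to 49.5), compared with 39.0%. These were the Dusp10 regions at 7.28 kb upstream and 11.51 kb downstream and the Dusp6 regions at 1.53 kb upstream and 5.67 kb downstream. A pair of RUNX motifs at that distance was present in the 5 regions shown above (31.2%, 14.2 to 55.6), compared with 25.7%. The AP-1 motif, TGACTCA or its complement TGAGTCA, was in 0 of the 16 central windows, which allows a share of up to 19.4% by the Wilson interval, and in 6.49% of all. With 16 regions none of these shares could be told apart from that of the whole list.

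The gene starts were searched for the same letters from 250 bases before to 50 bases after the annotated start in mm9. A RUNX motif was found at 2 of 9 starts, those of Dusp2 and Dusp8, compared with 45.4% of all genes. The first base of the Dusp2 motif stood 16 bases after the start and that of the Dusp8 motif 23 bases before it, and neither lay in a Runx3-bound region. An ETS motif was found at 5 starts, those of Dusp2, Dusp4, Dusp5, Dusp6 and Dusp16, compared with 65.5%, and Dusp6 had 4 of them. Such matches describe letters of the reference and are no measure of binding.

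The other genes of the pathway were described by lists. Of 15 other dual-specificity phosphatase genes, many of which encode enzymes without a docking site for MAP kinases, 4 held a Runx3-bound and 5 an H3K4me1-marked region, shares near those of all genes. Not all of the 15 lack this site. Dusp9, which encodes an enzyme that has it, held 0 Runx3-bound and 0 H3K4me1-marked regions. The most Runx3-bound regions were 2, at Dusp12. Among 3 tyrosine phosphatases of MAP kinases, 2 held regions of both kinds, with 2 Runx3-bound regions at Ptpn7, which encodes a phosphatase of ERK and p38 in blood cells. Of 10 MAP kinase genes, 5 held Runx3-bound and 5 held H3K4me1-marked regions.

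Of 7 MAP kinase kinase genes, 5 held Runx3-bound and 6 held H3K4me1-marked regions, with 3 Runx3-bound regions at Map2k2, which encodes an activator of ERK. Sprouty and Spred proteins inhibit the pathway upstream of ERK. Of their 6 genes examined, 3 held Runx3-bound and 3 held H3K4me1-marked regions, with 3 Runx3-bound regions at Spred2. Of 11 AP-1 and EGR genes, which encode nuclear factors induced through MAP kinases, 8 held Runx3-bound and 9 held H3K4me1-marked regions, with 2 Runx3-bound regions each at Fosl1, Jun, Junb and Egr3. None of these genes had a Runx3-bound region in common with the 9 phosphatase genes. Runx3-bound regions on H3K4me1 were found at 7 of the 9 phosphatase genes, 2 of the 3 tyrosine phosphatase genes, 4 of the 7 MAP kinase kinase genes and 5 of the 11 AP-1 and EGR genes. They were found at 3 of the 10 MAP kinase genes, 1 of the 6 Sprouty and Spred genes and 2 of the 15 other dual-specificity phosphatase genes. These differences were not tested.

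**Figure D4:**
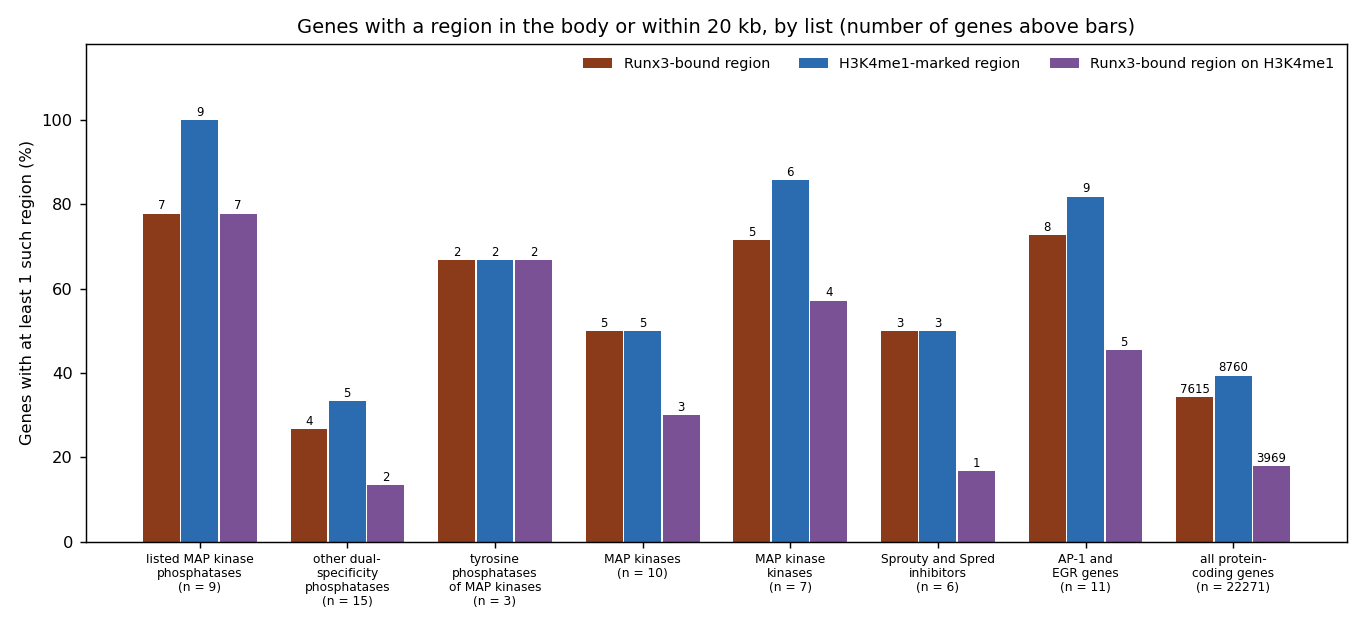
Share in percent of the genes of each list with at least 1 Runx3-bound region (brown), H3K4me1-marked region (blue) or Runx3-bound region on H3K4me1 (purple) in the gene body or within 20 kb; numbers above bars are genes and n is the size of the list. The 9 DUSP genes have 7, 9 and 7 such genes, and all 22271 protein-coding genes have 7615, 8760 and 3969.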

How the data were processed

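ChIP-seq libraries were 2 Runx3, 2 NIS and 1 H3K4me1 from IL-2-activated CD8-TC. The growth protocol mentions 2 H3K4me1 experiments, so that list may rest on 1 or 2 libraries. The authors aligned reads to mm9 with ELAND, kept unique alignments, joined repeats and called peaks with MACS against joined NIS reads, scaling the larger read set down. They deposited start and end positions of each peak, with 0 further columns of heights or p-values. Joining hides the spread between repeats, and unique alignment limits calls in repeated sequence.

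Regions were assigned to gene bodies with 20 kb on each side (minimum overlap 1 bp, coordinates counted from 1). The 2 vM1 entries of Dusp8 were joined. Motifs were searched on both strands of mm9, and motifs of different factors may share bases. No test was run. Shares over regions carry 95% Wilson intervals, which treat regions as independent although several belong to the same gene. The members and gene lists were chosen with earlier results of these data known. Named were the 9 genes, nearest gene starts of their regions, and in each list the genes with the most Runx3-bound regions or a region shared with a phosphatase gene. Dusp9 was named in addition. Sequence was printed for the widest Runx3-bound region on H3K4me1 and those at gene starts, with exceptions stated. Spry3 was not analysed here. The MAP kinase genes with the most regions are not reported here. Region placement, distances and motif search were tested on simulated data. Python 3.11.15, NumPy 2.4.6, SciPy 1.17.1 and matplotlib 3.10.9 were used. Alternatives were other windows, other overlaps, other starts and nearest-gene assignment.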

Additional observations from a re-analysis of the deposited data

How the results depend on the processing

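Over 26 alternatives for 7 results, no count moved by more than 1.5 times and no share left its counting interval. These limits were loose, since a count of the 9 genes has little room to rise and the intervals are wide. The number of DUSP genes with a Runx3-bound region was 5 with 10 kb on each side, where Dusp8 and Dusp16 dropped out, and 9 with 50 kb, where Dusp1 and Dusp4 came in. It was 7 with 20 kb around the gene start, with region centres, and with nearest gene starts. Of all genes, 34.2% had one with 20 kb on each side of the body and 25.9% with 20 kb around the gene start. The share of all genes was not computed for 10 kb or 50 kb, so the 5 and 9 cannot be set against it. Runx3-bound regions numbered 12 to 20 and H3K4me1-marked regions 28 to 49. The share on H3K4me1 was 58.3 to 81.2%, and that with a RUNX motif 75 to 93.8%. Genes with Runx3 at a start rose from 3 to 4 within 5 kb, and to 4 with any transcript start. For these alternatives, too, the share of all genes was not computed. No paired analysis was possible because each antibody has 1 list of regions. The number of reads behind each region, or at a gene without one, is not in the lists, so absence of a region, as at Dusp1, is no measure of absent binding.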

Other observations

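Beyond the 20 kb windows, the extension to 50 kb added 4 Runx3-bound regions. All 4 overlapped H3K4me1, compared with 57.3% of all Runx3-bound regions, a difference that was not tested. The Dusp1 region (chr17:26669493-26670003, 511 bp) lay 24.3 kb upstream with 3 RUNX motifs, and its nearest protein-coding gene start was that of Gm8225 at 9.96 kb. The Dusp4 region (chr8:35827990-35828373, 384 bp) lay 42.2 kb upstream with 1 RUNX motif, and Dusp4 was the nearest gene start. The Dusp2 region (chr2:127139988-127140618, 631 bp) lay 21.6 kb upstream, within the same 7690 bp H3K4me1-marked region as the one at 17.92 kb. The Dusp10 region (chr1:185941920-185942341, 422 bp) lay beyond the gene end, 105 kb downstream of the gene start. Its nearest protein-coding gene start was that of 1700056E22Rik at 84.7 kb.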
